A study of Mus musculus with 36 samples.

Results

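Immortalised mouse embryonic fibroblasts (MEF) and mouse embryonic stem cells (ESC) were compared at the level of messenger RNA, both with the genotype MLL3-/-;MLL4flox/flox. The comparison used 2 of the 36 samples of the series, 1 library of each cell type, chosen by genotype and by their deposited FPKM values (fragments per kilobase of transcript, scaled to the size of the library). The study asked what the histone methyltransferase MLL4 does in ESC, during their differentiation in embryoid bodies and during the reprogramming of MEF. All cells of the series lack MLL3 (gene Kmt2c), and in both libraries used here the conditional MLL4 allele (gene Kmt2d) had not been deleted. Per the labels, MEF grew in DMEM with serum, and ESC grew on irradiated embryonic fibroblast feeder cells in serum medium with LIF, the cytokine that holds mouse ESC undifferentiated. The labels state feeder removal for ESC taken to chromatin immunoprecipitation and do not state it for RNA. How the MEF were immortalised, and how many lines, clones or embryos either library stands for, is not given in the sources used here.

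ESC are pluripotent cells of epithelial type whose state rests on a small circuit of transcription factors around Oct4, Sox2 and Nanog, on LIF signalling and on autocrine Nodal and FGF signals. Fibroblasts are mesenchymal cells that secrete and remodel collagen matrix, pull on it through actin stress fibres, and keep a Hox code that marks where in the embryo they came from. Reprogramming of fibroblasts has to close the mesenchymal programme and reopen the pluripotent one.

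With 1 library a side there was no replicate and no test. Differences are given as log2((MEF FPKM + 1)/(ESC FPKM + 1)), a scale that understates the change of low genes, and a gene was counted as different at 4-fold or more on it. Genes with a mean of at least 1 FPKM over the pair were compared. A gene listed at 0 in 1 library passes only with 2 FPKM in the other, a log2 difference of 1.58, so counts within a list describe the members that passed and lean towards a difference. In bulk RNA, fewer cells of a type and less RNA per cell cannot be told apart, and cell type, line, medium, feeders and culture cannot be told apart between these 2 libraries.

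Of 12735 genes compared, 870 (6.83%) were at least 4-fold higher in MEF and 928 (7.29%) were at least 4-fold lower, while 10937 lay between. The lower side reached further: 171 genes were at least 16-fold lower in MEF and 73 at least 16-fold higher, and at 64-fold the numbers were 35 lower and 4 higher. The number listed at 0 in MEF with at least 1 FPKM in ESC was 286, and the number listed at 0 in ESC with at least 1 FPKM in MEF was 68. The depth behind the values, recovered from the FPKM steps of low genes, was 28921556 reads in MEF and 21573244 reads in ESC, so 1 FPKM on a 1 kb transcript stood for 28.9 reads in MEF and 21.6 reads in ESC. The median log2 difference of all genes compared was -0.12. Scaling by median-of-ratios would move differences of well-expressed genes by 0.12 towards MEF, and rescaling both libraries to the same FPKM sum would move them by 0.32, which gives 1191 genes at least 4-fold higher and 775 lower. The 100 most abundant genes held 27.4% of the FPKM sum in MEF and 33.7% in ESC, and 72 genes were in both lists.

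**Figure D1:**
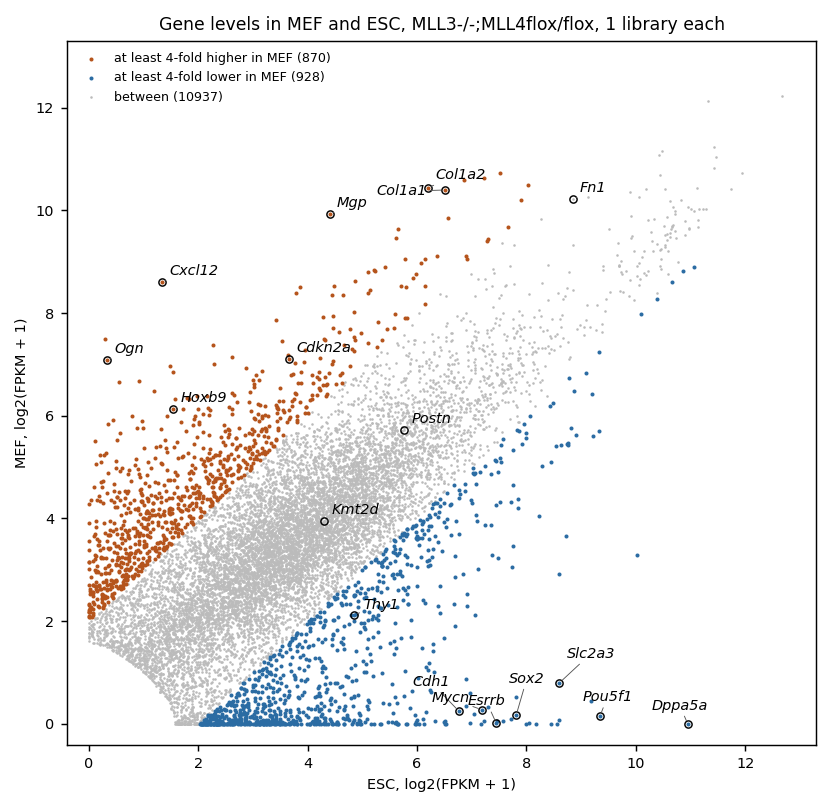
Level of each of the 12735 genes in MEF (vertical axis) against ESC (horizontal axis), both as log2(FPKM + 1), 1 library each, with chosen genes circled. Many of the 928 genes at least 4-fold lower in MEF lie along the floor of the plot, out to Dppa5a, while most of the 870 higher genes have some signal in ESC.

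The targeted genes differed little between the cell types. Kmt2d stood at 14.4 FPKM in MEF, against 18.7 FPKM in ESC, and Kmt2c, deleted in both, stood at 2.79 FPKM in MEF, against 3.44 FPKM in ESC. These are values over whole transcripts, so they do not isolate the deleted part and check no genotype. A list of 16 genes held the KMT2 methyltransferases and associated or related proteins, not all of them shared between the complexes. Wdr5, the scaffold of every KMT2 complex, was the 1 member past 4-fold (13.7 in MEF against 61.9 in ESC FPKM). That is 6.25% of the list, near the 7.29% of all genes compared that were at least 4-fold lower in MEF. In the list, 13 of 16 were lower in MEF to some degree (median -0.81). Wdr5 missed 4-fold under both rescalings, and the number below 0 was then 13 by median-of-ratios and 10 at the same sum. The other core subunits stayed within 4-fold: Ash2l at 28 in MEF against 80.2 in ESC, Rbbp5 at 7.59 in MEF against 22.9 in ESC and Dpy30 at 14 in MEF against 44.6 in ESC FPKM. Kdm6a, the histone H3 lysine 27 demethylase that travels with MLL3 and MLL4, stood at 8.1 FPKM in MEF, against 15.6 FPKM in ESC. Ncoa6, the coactivator bound to the same complex, was higher in MEF, at 14.1 in MEF against 6.42 in ESC FPKM. Both libraries held RNA of Y-linked genes, with Eif2s3y at 11.2 in MEF against 31.8 in ESC FPKM and Ddx3y at 8.25 in MEF against 5.03 in ESC FPKM. Uty stood at 2.65 in MEF against 4.81 in ESC, Kdm5d at 3.8 in MEF against 1.85 in ESC and Xist, the X inactivation RNA, at 0.0482 in MEF against 2.23 in ESC FPKM.

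The core pluripotency genes were lower in MEF without exception. All 16 of 16 genes were at least 4-fold lower in MEF, against 7.29% of all genes compared, with a median log2 difference of -6.85, or -6.58 with genes listed at 0 set to the floor of 3 reads on a 500-base transcript. The 3 genes with the largest differences were Dppa5a, Pou5f1 and Utf1. Dppa5a, an RNA-binding protein of early embryos, was listed at 0 in MEF, against 1975 FPKM in ESC; on the reads recovered, with a floor of 3 reads in MEF, it was at least 12168-fold lower in MEF. Pou5f1, the gene of Oct4, stood at 0.12 FPKM in MEF, against 650.4 FPKM in ESC, and Sox2, its DNA-binding partner, stood at 0.127 FPKM in MEF, against 224 FPKM in ESC. Utf1, a chromatin-bound ESC factor, was listed at 0 in MEF, against 375 FPKM in ESC, and Zfp42 (Rex1), a widely used marker of the undifferentiated state, was listed at 0 in MEF, against 348 FPKM in ESC.

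Next to them, Tdgf1, the Nodal coreceptor Cripto, was listed at 0 in MEF against 288 in ESC FPKM, and L1td1, an RNA-binding protein derived from a transposon, stood at 0.047 in MEF against 190.3 in ESC FPKM. Lin28a, the RNA-binding protein that blocks let-7 processing, was listed at 0 in MEF against 144 in ESC FPKM, and Trim71, another target and opponent of let-7, stood at 0.0266 in MEF against 45.6 in ESC FPKM. Sall4, a zinc finger factor of the Oct4 circuit, was listed at 0 in MEF against 91.2 in ESC, Dppa4 was listed at 0 in MEF against 68.7 in ESC and Dppa2 stood at 0.0534 in MEF against 25.9 in ESC FPKM. Thus 8 of the 16 were listed at 0 in MEF and none in ESC. The members with signal left in MEF were Nanog, the homeobox factor of the circuit, at 7.26 FPKM in MEF, against 212 FPKM in ESC, Rif1, which also times replication in other cells, at 7.67 in MEF against 55.6 in ESC FPKM, and Gdf3, a TGF-beta ligand, at 4.56 in MEF against 32.4 in ESC FPKM. Nanog and Pou5f1 have near-identical copies in the mouse genome and the rule for shared reads is not given, so their low values in MEF are uncertain. Pou5f1-rs4, 1 such copy, was listed at 0 in MEF against 16.9 in ESC FPKM.

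**Figure D2:**
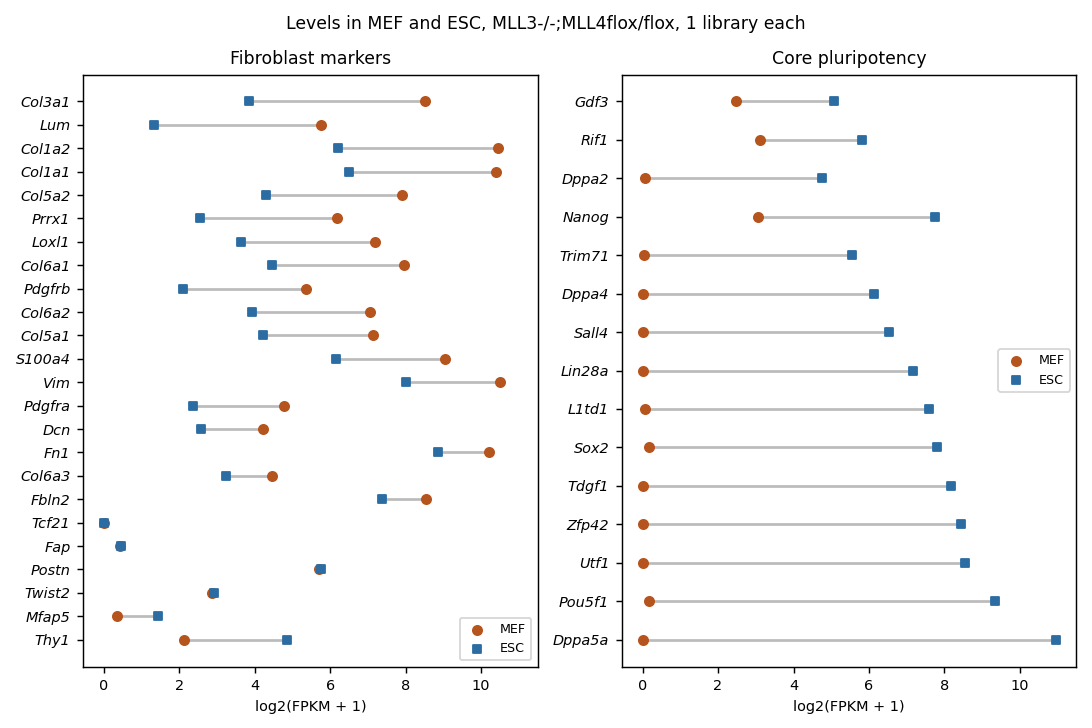
Levels in MEF (circles) and ESC (squares) as log2(FPKM + 1), 1 library each, for 24 fibroblast markers (left) and 15 of the 16 core pluripotency genes (right), ordered by difference. All 15 pluripotency genes drawn lie lower in MEF, most of them at or near 0, while fibroblast markers lie well above 0 in ESC and Thy1, Twist2 and Postn are no higher in MEF.

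Promoter windows were read for the pluripotency genes because their members differed together. The Oct-Sox composite string TTTGCATNACAA, searched on both strands and overlapping in part with the octamer ATGCAAAT, was found in 0.0365% of 32851 promoter windows of 300 bases (250 before to 50 after each start, RefSeq, GRCm38.p6). Of the 22 core and naive pluripotency genes with a window, 1 held it, and that gene was Nanog. Nanog has 2 windows, and 1 that held the match is shown with the match in capitals (chr6:122707239-122707538, plus strand, GRCm38.p6).
Nanog: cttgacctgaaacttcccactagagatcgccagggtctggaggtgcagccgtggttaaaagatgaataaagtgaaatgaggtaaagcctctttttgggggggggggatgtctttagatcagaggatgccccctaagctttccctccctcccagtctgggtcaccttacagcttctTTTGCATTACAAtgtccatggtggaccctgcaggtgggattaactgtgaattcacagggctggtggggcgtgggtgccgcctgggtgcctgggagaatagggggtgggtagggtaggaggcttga
The match begins 75 bases before the annotated start of the window shown. Among all genes with a window, the octamer was found in 2.54% of the genes at least 4-fold higher in MEF, 3.51% of the genes at least 4-fold lower and 1.63% of all genes compared. The AP-1 string TGAGTCA, on both strands, was found in 6.98% of the higher genes, 4.39% of the lower genes and 4.42% of all genes compared. These are matches of letters and not sites.

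Genes of the naive state, which marks mouse ESC in LIF, were lower in MEF in 14 of 18 cases and past 4-fold higher in none (median -3.43). Esrrb, an orphan nuclear receptor of the naive circuit, stood at 0.00748 FPKM in MEF, against 174 FPKM in ESC, and Nr0b1 (Dax1) was listed at 0 in MEF, against 90.1 FPKM in ESC. Fgf4, the autocrine FGF of ESC, was listed at 0 in MEF against 48.6 in ESC, Dppa3, a maternal factor kept by naive cells, was listed at 0 in MEF against 39.1 in ESC, and Fbxo15, an Oct4 target, stood at 0.174 in MEF against 70.9 in ESC FPKM. The Krüppel-like factors kept RNA in MEF: Klf5 stood at 3.37 in MEF against 132 in ESC, Klf2 at 19 in MEF against 208 in ESC and Klf4, a reprogramming factor, at 18.8 in MEF against 88.8 in ESC FPKM. Stat3, Tbx3, Lifr and Socs3 were the 4 within 4-fold. Stat3, the effector of LIF, stood at 64.3 in MEF against 33.9 in ESC FPKM and Lifr, the LIF receptor, at 7.82 in MEF against 7.77 in ESC FPKM.

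The LIF pathway was thus present in both libraries in different parts. Of 10 members compared, 3 were at least 4-fold higher in MEF, namely Osmr, the oncostatin M receptor (35.1 in MEF against 4.83 in ESC FPKM), Il6st, the shared gp130 receptor (112 in MEF against 23.6 in ESC), and the kinase Jak2 (13.2 in MEF against 2.38 in ESC). The 2 lower ones were Pim3 (8.62 in MEF against 103 in ESC) and Pim1 (11.8 in MEF against 96.8 in ESC), serine kinases induced by STAT3. Nodal and FGF signalling gave 8 of 15 lower and none higher. The Nodal inhibitors Lefty1 (0.0647 in MEF against 209 in ESC) and Lefty2 (0.0421 in MEF against 176 in ESC), close copies of each other, Nodal itself (listed at 0 in MEF against 18.6 in ESC) and its cofactor Foxh1 (0.127 in MEF against 25.4 in ESC) were near 0 in MEF. Etv5, an ETS factor induced by FGF, stood at 7.09 in MEF against 137 in ESC, and the feedback inhibitor Spry4 at 3.36 in MEF against 26.6 in ESC FPKM. Fgfr1, the main FGF receptor of fibroblasts, was within 4-fold at 53.3 in MEF against 21.7 in ESC FPKM.

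Most genes of the primed epiblast were lower in MEF. Of 11 listed, 9 were compared, 7 were at least 4-fold lower in MEF and 2 lay between, of which Sall2 was higher in MEF (8.02 in MEF against 1.52 in ESC FPKM) (median -3.43). Otx2, a head and epiblast homeobox gene, was listed at 0 in MEF against 15.4 in ESC, Pou3f1 stood at 0.0459 in MEF against 10.2 in ESC, Zic2 at 0.0233 in MEF against 22.2 in ESC and Zic5 was listed at 0 in MEF against 12.95 in ESC FPKM. Fgf5, the standard marker of primed cells, was under the filter at 0.525 in MEF against 0.926 in ESC FPKM. Of 16 germline genes, 8 passed the filter, 7 of these were lower in MEF, and 7 of the 16 were listed at 0 there. Tdrd12, of the piRNA pathway, stood at 0.0213 in MEF against 32.1 in ESC, Tex19.1, a transposon-silencing factor, was listed at 0 in MEF against 20.7 in ESC and Kit stood at 0.113 in MEF against 6.94 in ESC FPKM.

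Chromatin genes typical of ESC differed in part. Of 21, 8 were at least 4-fold lower in MEF and none higher (median -1.81). The de novo DNA methylation genes had the largest differences: the cofactor Dnmt3l stood at 0.0259 FPKM in MEF, against 89.2 FPKM in ESC, and the enzyme Dnmt3b at 0.583 FPKM in MEF, against 74 FPKM in ESC. Tet1, which oxidises methylcytosine, stood at 0.859 in MEF against 63.4 in ESC FPKM, while its paralogue Tet3 was higher in MEF at 5.94 in MEF against 1.37 in ESC FPKM, within 4-fold. Of Polycomb genes, the cofactors Jarid2 (3.89 in MEF against 82.2 in ESC) and Mtf2 (6.38 in MEF against 40.8 in ESC) and the core subunit Eed (11.6 in MEF against 79.6 in ESC) passed 4-fold, whereas Ezh2 (25.3 in MEF against 63 in ESC) and Suz12 (22.2 in MEF against 49.1 in ESC) did not. Trim28, the corepressor that silences retroviral elements, stood at 84.8 in MEF against 589 in ESC FPKM.

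Epithelial genes were lower in MEF, most of them close to 0 there. Of 21 epithelial genes compared, 18 were at least 4-fold lower in MEF and none was higher (median -4.36). Cdh1, the gene of E-cadherin, stood at 0.188 FPKM in MEF, against 108 FPKM in ESC, which rests on 24 reads in MEF. Epcam, an epithelial adhesion molecule, stood at 0.0168 FPKM in MEF, against 125 FPKM in ESC, and the membrane protease inhibitor Spint2 at 0.261 FPKM in MEF, against 155 FPKM in ESC. The tight junction genes Cldn4 (0.0382 in MEF against 89.8 in ESC) and Cldn6 (listed at 0 in MEF against 62.2 in ESC), the splicing regulator Esrp1 (0.0348 in MEF against 30.01 in ESC) and the transcription factor Grhl2 (0.00699 in MEF against 10.9 in ESC) were all at or near 0 in MEF. Cadherins were exchanged: Cdh2, N-cadherin, stood at 68.1 FPKM in MEF, against 3.65 FPKM in ESC and Cdh11, of mesenchymal cells, at 107 FPKM in MEF, against 17.1 FPKM in ESC. Cdh3, P-cadherin, was alike in both at 18.8 in MEF against 16.3 in ESC FPKM.

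Intermediate filaments followed the same division. Of 14 compared, 8 were lower in MEF and 2 higher. The keratins Krt8 (0.0383 in MEF against 9.17 in ESC) and Krt18 (0.0494 in MEF against 13.5 in ESC), which pair in simple epithelia, were near 0 in MEF, and so was Krt42 (listed at 0 in MEF against 17.5 in ESC). Vim, the filament of mesenchymal cells, stood at 1442 FPKM in MEF, against 259 FPKM in ESC. The nuclear lamins were split, with Lmna at 178 in MEF against 28.2 in ESC, Lmnb1 at 34.2 in MEF against 172 in ESC and Lmnb2 at 8.26 in MEF against 37.1 in ESC FPKM, so that the A-type gene was higher in MEF and both B-type genes were lower.

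Some metabolic genes that mark ESC were lower in MEF. Slc2a3, the high-affinity glucose transporter GLUT3, stood at 0.742 FPKM in MEF, against 388 FPKM in ESC, while the general transporter Slc2a1 was within 4-fold at 43.7 in MEF against 176 in ESC FPKM. Of 21 glycolysis and hypoxia genes, 9 were at least 4-fold lower and none higher (median -1.85). Ldhb stood at 47.5 in MEF against 596 in ESC and its partner Ldha at 320.4 in MEF against 414 in ESC FPKM, so the B subunit differed and the A subunit hardly did. Pdk1 (5.33 in MEF against 56 in ESC), Pfkp (8.1 in MEF against 73.2 in ESC), Hk2 (15.9 in MEF against 73.5 in ESC) and Aldoa (252 in MEF against 1095 in ESC) were among the rest. Eno1 (5.08 in MEF against 49.1 in ESC) has close copies and is uncertain.

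In amino acid metabolism 6 of 17 genes were lower and none higher (median -1.88). Tdh, the threonine dehydrogenase on which mouse ESC depend, stood at 0.0184 FPKM in MEF, against 263 FPKM in ESC, and Gldc, which feeds one-carbon units from glycine, at 0.512 FPKM in MEF, against 124 FPKM in ESC. The transporters Slc7a7 (0.455 in MEF against 53.4 in ESC) and Slc7a3 (1.27 in MEF against 73.7 in ESC) had large differences, while the serine synthesis gene Phgdh was alike at 121 in MEF against 144 in ESC FPKM. Of 20 respiratory chain genes, only the tissue-restricted subunits Cox6b2 (0.56 in MEF against 59.2 in ESC) and Cox7a1 (0.472 in MEF against 13.9 in ESC) passed 4-fold. Smaller differences leaned the same way: 18 of 20 were below 0, also under both rescalings (median -0.93). The list summed to 1994 FPKM in MEF, against 3599 FPKM in ESC. Chchd10, a mitochondrial protein outside the lists, stood at 0.365 in MEF against 577 in ESC FPKM. Trh, the gene of thyrotropin-releasing hormone, stood at 0.05 in MEF against 384 in ESC FPKM, and Bex1, a small signalling adaptor, at 0.439 in MEF against 224 in ESC FPKM.

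The Myc genes differed in which member was abundant. Mycn, the Myc gene of ESC, stood at 0.213 FPKM in MEF, against 144 FPKM in ESC, and Myc itself at 26.4 FPKM in MEF, against 10.8 FPKM in ESC. Mxd4, a Myc antagonist, stood at 42.6 FPKM in MEF, against 2.79 FPKM in ESC. Among 28 cell cycle genes, 23 were below 0 (median -1.10) with a summed level of 1344 FPKM in MEF, against 2529 FPKM in ESC, and 5 passed 4-fold. Cyclin D2 (Ccnd2, 179 in MEF against 18.6 in ESC) was past 4-fold higher in MEF, and cyclin E1 (Ccne1, 13.2 in MEF against 91.9 in ESC) and the replication licensing genes Cdt1 (18.2 in MEF against 96.6 in ESC), Mcm3 (34 in MEF against 173 in ESC) and Mcm7 (51.4 in MEF against 231 in ESC) were past 4-fold lower. Mki67, the proliferation marker, was within 4-fold at 47.3 in MEF against 62.7 in ESC FPKM, and Cdk1 was alike at 33.7 in MEF against 37.8 in ESC FPKM. All 20 cytosolic ribosomal protein genes were lower in MEF, below 0 on the log2 scale also under both rescalings (median -1.13), although only Rpl28 (476 in MEF against 2129 in ESC) passed 4-fold. Ribosomal protein genes have many copies, and their counting is uncertain. None of 11 housekeeping genes passed 4-fold (median -0.44).

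Inhibitors of the cell cycle differed in both directions. Of 18 genes of the CDK inhibitor and p53 axis (median -0.05), 3 were at least 4-fold higher, all INK4-type: Cdkn2a, which also encodes ARF, at 136 FPKM in MEF, against 11.6 FPKM in ESC, Cdkn2c at 21.5 FPKM in MEF, against 0.617 FPKM in ESC and Cdkn2b at 22.8 FPKM in MEF, against 4.89 FPKM in ESC. The 3 lower ones were the p53-responsive genes Bbc3 (2.9 in MEF against 31.7 in ESC), Sesn2 (11.3 in MEF against 66.7 in ESC) and Gdf15 (0.287 in MEF against 4.75 in ESC). Trp53 itself stood at 60.2 in MEF against 207 in ESC FPKM and its target Cdkn1a at 15.2 in MEF against 40.1 in ESC FPKM, both within 4-fold.

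Some microRNA host clusters also differed, and their hairpins were examined after their values had been seen. Mature miRNAs of the miR-17 cluster and its related clusters are shown, each from 1 locus, with bases 2 to 8, the seed, in capitals (RefSeq, GRCm38.p6). Among the loci shown, the seeds AAAGUGC and AUUGCAC occur in more than 1 of the clusters on chromosomes 14, 5 and X. The chromosome X cluster also holds Mir18b and Mir19b-2, which are not among the loci shown.
mmu-miR-17-5p: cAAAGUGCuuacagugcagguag
mmu-miR-20a-5p: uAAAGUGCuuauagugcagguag
mmu-miR-93-5p: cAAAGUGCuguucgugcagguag
mmu-miR-106b-5p: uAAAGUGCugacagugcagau
mmu-miR-18a-5p: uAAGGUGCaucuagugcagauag
mmu-miR-19a-3p: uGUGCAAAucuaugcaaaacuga
mmu-miR-19b-3p: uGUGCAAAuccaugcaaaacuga
mmu-miR-92a-3p: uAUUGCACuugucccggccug
mmu-miR-25-3p: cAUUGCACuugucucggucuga
mmu-miR-363-3p: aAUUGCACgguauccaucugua
miR-17, miR-20a, miR-93 and miR-106b share AAAGUGC, miR-18a has AAGGUGC, miR-19a and miR-19b share GUGCAAA, and miR-92a, miR-25 and miR-363 share AUUGCAC. The libraries hold poly(A) RNA, so reads at a hairpin stand for the unprocessed host transcript and not for the mature miRNA. Mir17hg, the host on chromosome 14, stood at 1.14 FPKM in MEF, against 18.9 FPKM in ESC. The 6 hairpins of that cluster held 5 reads in MEF and 73 in ESC, and 5 of the 6 were at least 4-fold lower in MEF. The 6 hairpins of the chromosome X cluster held 0 reads in MEF and 63 in ESC. Of these, Mir363 held 0 reads in MEF (95% Poisson interval up to 3.69) and 31 in ESC (interval 21.06 to 44.0, counting error only). The 3 hairpins within the host gene of Mir106b held 4 reads in MEF and 39 in ESC, of which Mir25 gave 2 and 27, and 1 of the 3 was at least 4-fold lower. In the Mir290a to Mir295 cluster, specific to ESC, only Mir290a had reads, 0 in MEF and 7 in ESC. The 5 hairpins of the Mir302a to Mir367 cluster held 3 reads in MEF and 9 in ESC, and none was at least 4-fold lower.

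Hairpins on the MEF side were fewer and were chosen the same way.
mmu-miR-196a-5p: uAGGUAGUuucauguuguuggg
mmu-miR-125a-5p: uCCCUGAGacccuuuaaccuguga
Mir196a-1, which lies in the Hoxb region, held 66 reads in MEF (interval 51.04 to 83.97) and 2 in ESC (interval 0.24 to 7.22). Mirlet7e and Mir125a, neighbours on chromosome 17, held 14 and 7 reads in MEF, and 1 and 0 in ESC. Over all 121 hairpin genes compared, 9 (7.44%) were at least 4-fold higher and 18 (14.9%) at least 4-fold lower in MEF, against 6.83% and 7.29% of all genes compared.

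On the MEF side, the largest difference was that of Cxcl12, the chemokine by which stromal cells hold CXCR4-bearing cells, at 388 FPKM in MEF, against 1.52 FPKM in ESC (log2 difference 7.27). Il1rn, the interleukin 1 receptor antagonist, stood at 179.8 FPKM in MEF, against 0.224 FPKM in ESC, and Ogn, a small matrix proteoglycan, at 134 FPKM in MEF, against 0.255 FPKM in ESC. Mgp, an inhibitor of calcification, was abundant at 970.2 FPKM in MEF, against 20.2 FPKM in ESC. The water channel Aqp1 (100.1 in MEF against 0.47 in ESC), the matricellular gene Ccn3 (100.7 in MEF against 0.882 in ESC), the cytochrome Cyp1b1 (124 in MEF against 1.81 in ESC), the carbonyl reductase Cbr2 (56.6 in MEF against 0.272 in ESC) and the protease inhibitor Serpinb1a (59.3 in MEF against 0.363 in ESC) came next. They were followed by the chemokine Ccl5 (44.7 in MEF against 0.0873 in ESC), the growth arrest gene Gas1 (114 in MEF against 1.9 in ESC), the proteoglycan Aspn (62.8 in MEF against 0.73 in ESC) and the secreted Wnt modulator Dkk3 (164 in MEF against 3.84 in ESC). Capn6, a calpain without protease activity, stood at 49.6 in MEF against 0.483 in ESC and the orphan receptor Nr2f1 at 36.5 in MEF against 0.153 in ESC FPKM. Of these 15 genes, 10 were under 1 FPKM in ESC, and the highest of them there was Mgp.

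Most fibroblast markers, not all, stood higher in the library labelled MEF. Of 24 listed, 21 were compared, 14 were at least 4-fold higher in MEF (against 6.83% of all genes), 1 was lower and 6 lay between (median 2.90). The fibrillar collagens led, with Col1a2 at 1387 FPKM in MEF, against 72.2 FPKM in ESC, Col1a1 at 1345 FPKM in MEF, against 89.7 FPKM in ESC and Col3a1 at 362 FPKM in MEF, against 13.5 FPKM in ESC. These chains form the collagen fibres of connective tissue. Lum, a collagen-binding proteoglycan, stood at 52.7 in MEF against 1.5 in ESC, the homeobox gene Prrx1 at 71.1 in MEF against 4.9 in ESC, Pdgfrb at 40.3 in MEF against 3.25 in ESC, Pdgfra at 26.5 in MEF against 4.11 in ESC and S100a4 at 528 in MEF against 69.9 in ESC FPKM. The other markers past 4-fold were Col5a2, Col5a1, Col6a1, Col6a2, Loxl1 and Vim. Thy1, a surface glycoprotein of many fibroblasts, ran the other way at 3.37 FPKM in MEF, against 27.8 FPKM in ESC. Postn (51.5 in MEF against 53.3 in ESC) and Twist2 (6.35 in MEF against 6.61 in ESC) were alike, and Dcn (17.8 in MEF against 5 in ESC), Fn1 (1186 in MEF against 459.9 in ESC), Fbln2 (368 in MEF against 164 in ESC) and Col6a3 (21.1 in MEF against 8.47 in ESC) were higher in MEF by under 4-fold. Fap (0.345 in MEF against 0.377 in ESC), Mfap5 (0.27 in MEF against 1.71 in ESC) and Tcf21, listed at 0 in both, were under the filter.

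Transcription factors of mesenchyme that passed the filter leaned to the MEF side. Of 35 listed, 23 were compared, 16 were at least 4-fold higher in MEF (against 6.83% of all genes) and none lower (median 2.63), while 12 stood under the filter. No listed member exceeded 6.61 FPKM in ESC, and with no filter on low values the median was 1.84, under 4-fold. Foxc1, a forkhead factor of mesenchyme and skull, stood at 28.7 FPKM in MEF, against 0.267 FPKM in ESC. Prrx2 (62.8 in MEF against 2.83 in ESC), the paralogue of Prrx1, and Snai2 (63.7 in MEF against 3.6 in ESC), a repressor of E-cadherin, came next. Other repressors of E-cadherin were also higher, with Zeb1 at 29.4 in MEF against 2.64 in ESC, Snai1 at 20.3 in MEF against 4.03 in ESC and Twist1 at 21.9 in MEF against 3.84 in ESC FPKM. Limb and trunk factors followed, with Tbx15 at 25.7 in MEF against 1.94 in ESC and Osr1 at 13.8 in MEF against 2.07 in ESC FPKM. Runx1 (9.97 in MEF against 0.44 in ESC) and Runx2 (9.06 in MEF against 0.602 in ESC), of blood and bone, stood at similar levels to each other. Of the AP-1 genes, Fosl2 was higher in MEF at 69.7 FPKM in MEF, against 3.55 FPKM in ESC, Fosb lower at 11.6 FPKM in MEF, against 62.9 FPKM in ESC, and Jun alike at 42.5 FPKM in MEF, against 32.7 FPKM in ESC.

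The Hox genes showed which part of the code the MEF carried. Of 39 listed, 24 were compared, 17 were at least 4-fold higher in MEF (against 6.83% of all genes) and none lower (median 3.16). The 15 under the filter included all but 1 of the 9 Hoxd genes, and with no filter on low values the median was 1.79, under 4-fold. Hoxb9 was the most abundant at 69 FPKM in MEF, against 1.91 FPKM in ESC, and Hoxa5 had the largest difference at 33.3 FPKM in MEF, against 0.173 FPKM in ESC. The Hoxb genes from Hoxb2 to Hoxb9 were all past 4-fold, with Hoxb8 at 30.5 in MEF against 0.526 in ESC and Hoxb6 at 25.5 in MEF against 0.701 in ESC FPKM. In Hoxa the run from Hoxa2 to Hoxa7 passed, and Hoxa10 (3.22 in MEF against 0.221 in ESC) and Hoxa11 (3.17 in MEF against 0.081 in ESC) were low. In Hoxc the genes Hoxc4 (19.6 in MEF against 0.327 in ESC), Hoxc5 (8.44 in MEF against 0.238 in ESC) and Hoxc6 (20.6 in MEF against 1.31 in ESC) passed, and Hoxc8 stood at 9.55 in MEF against 2.03 in ESC FPKM. Genes of group 13, which mark the ends of limbs and trunk, were listed at 0 or under 0.1 FPKM in MEF. In ESC no Hox gene exceeded Hoxc8.

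**Figure D3:**
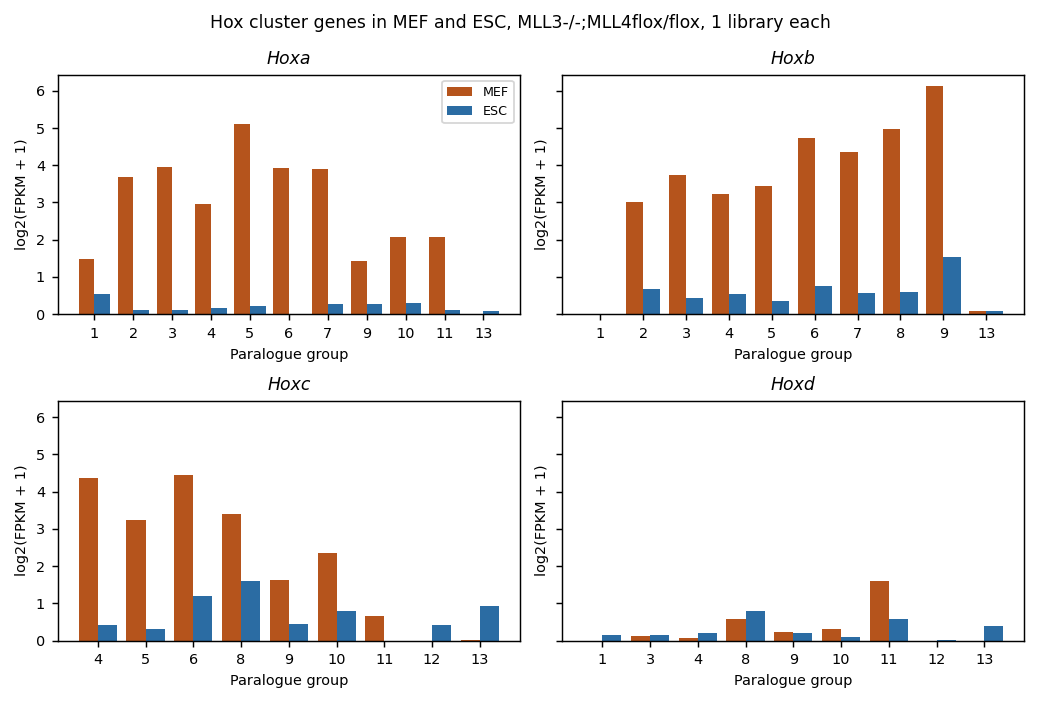
Levels of the 39 Hox genes as log2(FPKM + 1) in MEF (left bar) and ESC (right bar), 1 library each, by cluster and paralogue group. MEF levels form a block from group 2 to group 9 of Hoxb, groups 2 to 7 of Hoxa and groups 4 to 8 of Hoxc, and the Hoxd cluster is near 0 apart from Hoxd11.

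Matrix genes beyond the markers gave the same picture with exceptions. Of 35 collagen genes, 25 were compared, 14 were at least 4-fold higher and 2 lower in MEF (median 2.01). Col11a1, a fibrillar chain of cartilage and tendon, stood at 62.5 in MEF against 1.68 in ESC and Col2a1, the main cartilage chain, at 20.4 in MEF against 1.5 in ESC FPKM. Col18a1, the basement membrane chain that yields endostatin, was lower at 6.28 FPKM in MEF, against 103 FPKM in ESC. The basement membrane chains Col4a1 (30.4 in MEF against 21.8 in ESC) and Col4a2 (34.7 in MEF against 20.05 in ESC) were within 4-fold. Collagen modification and crosslinking gave 8 of 21 higher and none lower (median 1.93). The lysyl oxidases Lox (455 in MEF against 35.9 in ESC) and Loxl1 (145 in MEF against 11.4 in ESC), the collagen chaperone Serpinh1 (408 in MEF against 59.7 in ESC) and the prolyl hydroxylase subunit P4ha2 (41.5 in MEF against 7 in ESC) were among them.

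Small leucine-rich proteoglycans gave 5 of 9 higher, led by Ogn and Aspn and including the abundant Bgn (1574 in MEF against 148 in ESC). Omd, a proteoglycan of bone, was lower in MEF at 31.6 FPKM in MEF, against 150.2 FPKM in ESC. Of 27 matricellular and elastic fibre genes, 15 were higher and 1 lower (median 2.66). Sparc, a collagen-binding glycoprotein, stood at 919.5 in MEF against 94.2 in ESC, the elastic fibre genes Fbln5 at 57.4 in MEF against 2.23 in ESC, Emilin1 at 128 in MEF against 3.88 in ESC and Fbn1 at 62.6 in MEF against 7.96 in ESC FPKM. Ltbp4, a latent TGF-beta binding protein, was the lower one at 8.81 in MEF against 54.2 in ESC FPKM. Spp1, osteopontin, and Tnc, tenascin C, were alike, at 267 in MEF against 299 in ESC FPKM and at 121 in MEF against 133 in ESC FPKM.

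Matrix proteases differed in both directions. Of 22 proteases and inhibitors, 11 were higher in MEF and 2 lower. The aggrecanase Adamts5 (53 in MEF against 0.99 in ESC), the membrane protease Mmp14 (185 in MEF against 27.8 in ESC), its substrate Mmp2 (97.9 in MEF against 13.2 in ESC) and the inhibitors Timp2 (442 in MEF against 33.5 in ESC) and Timp3 (175 in MEF against 10.6 in ESC) were higher. The stromelysins Mmp3 (0.192 in MEF against 22.2 in ESC) and Mmp10 (listed at 0 in MEF against 3.85 in ESC) were lower, and Mmp13 (0.0905 in MEF against 2.27 in ESC) and Ctsk (0.459 in MEF against 3.4 in ESC) were lower by under 4-fold on this scale.

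Receptors for matrix leaned to the MEF side, with members past 4-fold in both directions. Of 13 integrins compared, 2 (15.4%) were at least 4-fold higher, 2 (15.4%) were at least 4-fold lower and 9 lay between. On the log2 scale 11 of 13 were above 0 and 2 below it (median 1.44), with 2 below 0 also under both rescalings. Itga11, the collagen receptor of fibroblasts (82.7 in MEF against 3.47 in ESC), and Itgav (63.9 in MEF against 8.37 in ESC) were the ones past 4-fold higher. Itga6, the laminin receptor (3.07 in MEF against 33.5 in ESC), and Itgb7 (1.38 in MEF against 9.78 in ESC) were lower, and the common beta chain Itgb1 stood at 329 in MEF against 84.5 in ESC FPKM. Of 12 laminin and basement membrane genes compared, 1 (8.33%) was higher, 1 (8.33%) was lower and 10 lay between (median 0.28). These shares are near those of all genes compared, 6.83% and 7.29%. Lama4 was the higher one at 26.5 in MEF against 3.47 in ESC, and Lama1 the lower one at 0.796 in MEF against 14.4 in ESC FPKM.

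The contractile cytoskeleton was higher in MEF as a group. Of 23 genes, 15 were at least 4-fold higher and 1, the muscle filament Des (0.079 in MEF against 7.08 in ESC), was lower (median 2.38). Acta2, smooth muscle actin, stood at 1544 FPKM in MEF, against 116 FPKM in ESC, and the summed level of the 23 genes was 7820.2 FPKM in MEF, against 1394 FPKM in ESC. Cnn1 (116 in MEF against 8.03 in ESC), Cald1 (452 in MEF against 36.5 in ESC), Myl9 (349.8 in MEF against 34.2 in ESC), Tpm1 (527 in MEF against 54 in ESC) and Vcl (206 in MEF against 26.5 in ESC) bind actin or myosin in stress fibres and focal adhesions. The CArG box, the element bound by serum response factor, was searched in their promoter windows and found in 3 of the 20 genes of the list with a window, against 1.63% of all promoter windows. The AP-1 string TGAGTCA was also found in 3 of these 20, against 5.20% of all promoter windows. The 3 windows with a CArG box are shown, with the match in capitals, for Myl9 (chr2:156775214-156775513, plus strand), Cnn2 (chr10:79988350-79988649, plus strand) and Vcl (chr14:20929148-20929447, plus strand), all GRCm38.p6.
Myl9: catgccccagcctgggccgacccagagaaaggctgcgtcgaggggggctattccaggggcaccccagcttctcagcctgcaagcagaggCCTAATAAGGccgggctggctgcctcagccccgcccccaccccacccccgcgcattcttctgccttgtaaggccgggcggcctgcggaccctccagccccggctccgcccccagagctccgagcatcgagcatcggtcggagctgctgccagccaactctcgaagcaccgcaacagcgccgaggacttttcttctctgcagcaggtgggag
Cnn2: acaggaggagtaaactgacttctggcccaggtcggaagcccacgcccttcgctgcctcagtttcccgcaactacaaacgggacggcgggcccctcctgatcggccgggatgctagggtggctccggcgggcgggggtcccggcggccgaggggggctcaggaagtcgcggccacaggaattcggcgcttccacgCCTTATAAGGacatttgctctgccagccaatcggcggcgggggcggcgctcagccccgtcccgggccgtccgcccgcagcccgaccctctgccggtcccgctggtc
Vcl: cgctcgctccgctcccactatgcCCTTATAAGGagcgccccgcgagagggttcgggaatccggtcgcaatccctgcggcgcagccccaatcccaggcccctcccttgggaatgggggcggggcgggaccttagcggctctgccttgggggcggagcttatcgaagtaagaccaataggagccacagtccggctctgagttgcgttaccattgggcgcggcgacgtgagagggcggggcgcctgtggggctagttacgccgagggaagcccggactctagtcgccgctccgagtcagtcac
The matches begin 161, 56 and 227 bases before the annotated starts, in the order shown, and each reads as a box on both strands. Among all genes with a window, the box was found in 2.06% of the genes at least 4-fold higher in MEF, 1.76% of the lower genes and 1.61% of all genes compared.

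Of the lists with at least 8 members compared, the list of caveolae, annexins and S100 proteins had the largest share on the MEF side, with 17 of 21 at least 4-fold higher and none lower (median 2.42). Cav1 (335 in MEF against 12.9 in ESC) and Cav2 (31.8 in MEF against 0.789 in ESC) coat caveolae, and their partner Cavin1 stood at 207 in MEF against 21.2 in ESC FPKM. Anxa1 stood at 392 in MEF against 28.2 in ESC, Anxa2 at 553 in MEF against 81.1 in ESC and S100a6 at 1168 in MEF against 237 in ESC FPKM. Anxa1 rests on 15830 reads in MEF, so counting error is small beside the difference. Cd9 (93.5 in MEF against 118 in ESC) and S100a13 (18.9 in MEF against 18.7 in ESC) were alike in both.

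**Figure D4:**
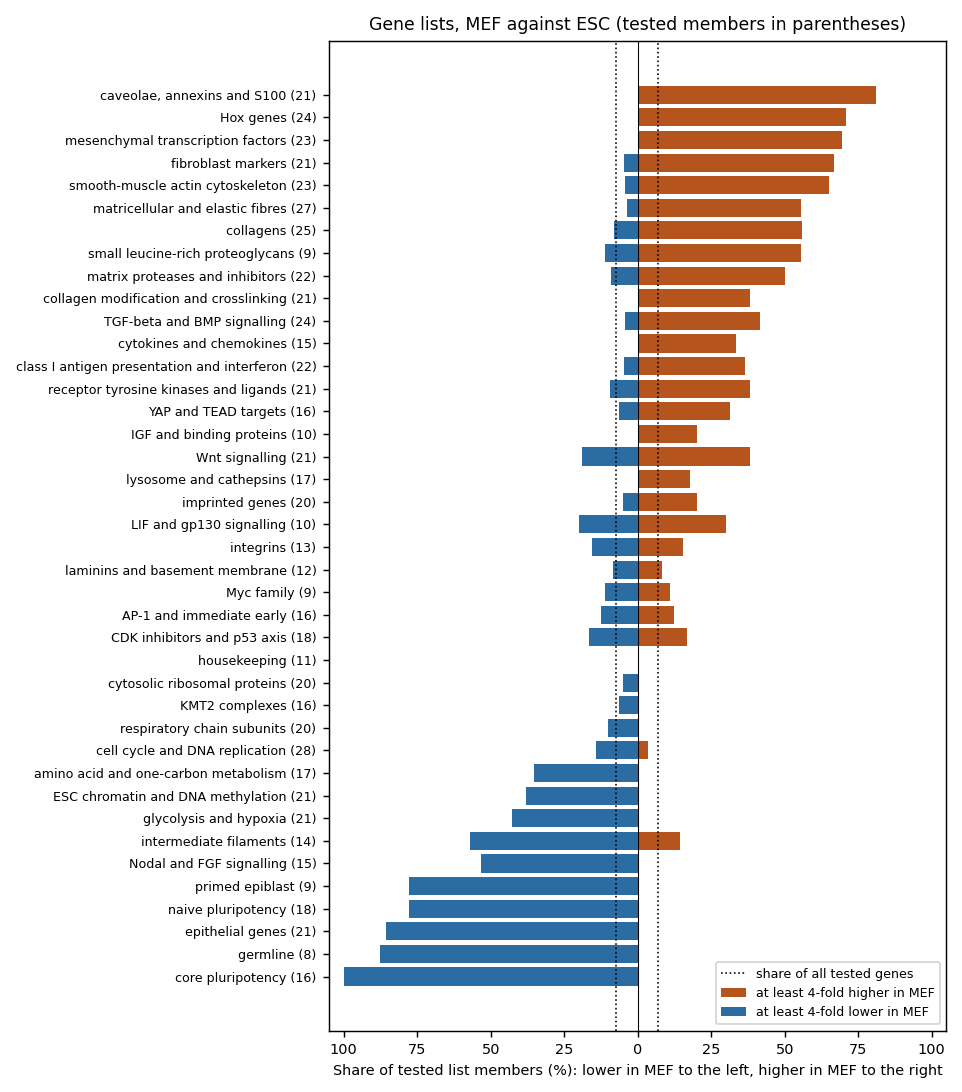
Share of the compared members of each list at least 4-fold higher in MEF (bars to the right) or at least 4-fold lower in MEF (bars to the left), for the lists with at least 8 members compared, with the number in parentheses. Dotted lines mark the shares of all genes compared, 6.83% and 7.29%. Core pluripotency reaches 100% on the lower side, and caveolae, annexins and S100 have the longest bar on the higher side.

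Signalling lists leaned to the MEF side in part. In TGF-beta and BMP signalling 10 of 24 were higher and 1 lower, with the matrix target Tgfbi at 69.5 in MEF against 2.3 in ESC, the receptor Tgfbr2 at 64.7 in MEF against 3.27 in ESC, the ligands Tgfb2 at 13.7 in MEF against 0.549 in ESC and Tgfb3 at 47.1 in MEF against 2.92 in ESC and the BMP antagonist Grem1 at 66.9 in MEF against 6.76 in ESC FPKM. Eng, a coreceptor, was the lower one (0.6 in MEF against 6.14 in ESC). Targets of YAP and TEAD gave 5 of 16 higher and 1 lower. The higher ones included Ccn1 (429.9 in MEF against 62.2 in ESC) and Ankrd1 (42.2 in MEF against 5.75 in ESC), whereas Ccn2 (192 in MEF against 76.7 in ESC) and Yap1 itself (54.3 in MEF against 48.1 in ESC) were within 4-fold. Of 21 receptor tyrosine kinase genes and ligands, 8 were higher, with Fgf7 at 32.7 in MEF against 1.49 in ESC, Egfr at 26 in MEF against 1.73 in ESC and Met at 20.03 in MEF against 1.76 in ESC FPKM. Epha2 (14.9 in MEF against 92.4 in ESC) and Kit were lower.

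Wnt genes were divided by family member. Of 21, 8 were higher and 4 lower in MEF (median 0.17). The receptor Fzd1 (40.2 in MEF against 1.01 in ESC) and the ligands Wnt16 (11.8 in MEF against 0.306 in ESC), Wnt5b (8.4 in MEF against 0.192 in ESC) and Wnt5a (16.8 in MEF against 2.24 in ESC) were higher, and Wnt10b was 7.86 in MEF against listed at 0 in ESC FPKM. The receptor Fzd5 (2.02 in MEF against 23.3 in ESC) and the nuclear effectors Lef1 (0.103 in MEF against 7.27 in ESC) and Tcf7 (2.83 in MEF against 26.1 in ESC) were lower. The IGF list gave 2 of 10 higher, Igfbp5 (28.3 in MEF against 0.641 in ESC) and Igf1 (4.99 in MEF against 0.113 in ESC), while Igfbp2 was lower in MEF by under 4-fold at 103 in MEF against 312 in ESC FPKM.

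Some genes of immune signalling were higher in MEF. Of 15 cytokine and chemokine genes compared, 5 were higher and none lower, and beside Cxcl12 they were the pattern receptor Ptx3 (19 in MEF against 0.965 in ESC), the decoy receptor Tnfrsf11b (38 in MEF against 3.6 in ESC), Cx3cl1 (11.4 in MEF against 0.634 in ESC) and Cxcl10 (5.16 in MEF against 0.169 in ESC). Of 22 genes of class I antigen presentation and the interferon response, 8 were higher, 1 was lower and 13 lay between. B2m, the light chain of class I molecules, stood at 789 FPKM in MEF, against 49.1 FPKM in ESC, and the interferon-induced genes Ifit1 (36.6 in MEF against 0.211 in ESC), Isg15 (79.2 in MEF against 1.96 in ESC) and Ifit3 (29.7 in MEF against 0.673 in ESC) had the largest differences. The heavy chain genes H2-K1 (33.8 in MEF against 24.1 in ESC) and H2-D1 (38.8 in MEF against 21.6 in ESC), which resemble each other in sequence, were within 4-fold. Ifitm1, which is expressed in ESC, was lower in MEF at 6.54 in MEF against 113 in ESC FPKM. Of 17 lysosomal genes, Ctsh (20.3 in MEF against 0.428 in ESC), Lamp2 (115 in MEF against 17.5 in ESC) and Ctsb (160.3 in MEF against 37.7 in ESC) were higher and none was lower. Of 20 imprinted genes compared, the noncoding H19 (704 in MEF against 48 in ESC), Plagl1 (15.3 in MEF against 1.15 in ESC), Sgce (27.6 in MEF against 4.75 in ESC) and Dlk1 (13.01 in MEF against 2.02 in ESC) were higher, and Phlda2 was lower at 0.235 in MEF against 57.9 in ESC FPKM.

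Fibroblast RNA in the ESC library was measured because the ESC grew on fibroblast feeders. Over the 21 fibroblast markers compared, the ESC level was a median of 12.7% of the MEF level, with 13 of 21 between 5% and 30%, 3 above 100%, and a range from 2.84% for Lum to 827% for Thy1. The summed level of all 24 markers was 7809 FPKM in MEF, against 1328 FPKM in ESC. Pluripotency genes in MEF were far lower by the same measure, at a median of 0.00921% of the ESC level over 16 genes, 8 of them listed at 0 in MEF. Other mesenchymal lists stood at similar shares in ESC, with medians of 14.5% for matricellular genes, 17.9% for the contractile cytoskeleton, 15.5% for caveolae, annexins and S100, and 8.98% for mesenchymal transcription factors. Hox genes had a median of 2.76% over the 24 of 39 that passed the filter. No Hox gene exceeded 2.03 FPKM in ESC, so these genes passed mainly through their MEF level, which favours a low share. Their median therefore cannot be set against that of the more abundant markers. Single genes stood above 100% in most of these lists, among them 4 of 25 collagens, 5 of 27 matricellular genes and 5 of the 21 proteases and inhibitors with signal in MEF. Examples past 4-fold, with the small proteoglycans included, are Thy1, Omd, Col18a1, Ltbp4 and Mmp3. Mmp10, listed at 0 in MEF, has no such share and is not counted. Whether this RNA came from feeders or from the stem cells themselves cannot be told apart in bulk RNA, and its part in the differences was not tested.

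**Figure D5:**
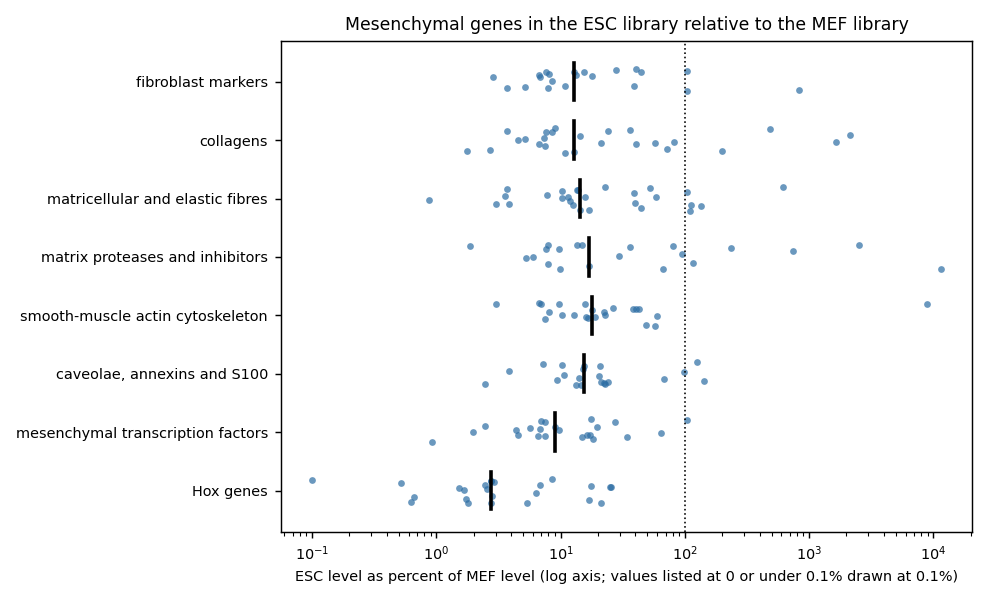
ESC level as percent of MEF level (log axis) for each compared gene of 8 mesenchymal lists, 1 library each, with a black line at the median and a dotted line at 100%. Medians lie between 2.76% for Hox genes, which passed the filter mainly through MEF, and 17.9% for the contractile cytoskeleton, and single genes exceed 100%.

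Most markers of other cell types were under 1 FPKM in both libraries. Of 14 endothelial and blood markers, 8 were listed at 0 in MEF and 3 in ESC, and Cdh5, Ptprc and Adgre1 were each listed at 0 in MEF and under 0.2 FPKM in ESC. Of the 2 compared, only the endothelial adhesion gene Pecam1 passed 4-fold, at 0.0311 FPKM in MEF, against 22.3 FPKM in ESC. The other was lower in MEF by under 4-fold (log2 difference -1.90). The list summed to 2.68 FPKM in MEF, against 33.4 FPKM in ESC. Of 12 neural markers, Tubb3 (17.1 in MEF against 42.8 in ESC), Nes (16.8 in MEF against 10.2 in ESC) and Map2 (10.1 in MEF against 3.08 in ESC) carried nearly all signal, and Sox1 was listed at 0 in MEF against 0.149 in ESC FPKM. The list summed to 47.1 FPKM in MEF, against 62.4 FPKM in ESC. Of 13 skeletal muscle and cartilage markers, 4 were compared. Sox9 (18.8 in MEF against 0.201 in ESC) and Col2a1 were higher in MEF, Des (0.079 in MEF against 7.08 in ESC) was lower and 1 lay between. The member between had the highest level of the list in both libraries. Myod1 was listed at 0 in both and Acan stood at 0.611 in MEF against 1.17 in ESC FPKM. That list summed to 97.2 FPKM in MEF, against 58 FPKM in ESC. Of 14 endoderm and trophoblast markers, Gata6 (8.37 in MEF against 0.464 in ESC) and Dab2 (15.5 in MEF against 2.61 in ESC) were higher in MEF, Tfap2c was listed at 0 in MEF against 49.5 in ESC FPKM, and Cdx2, Sox17 and Afp were at 0 or under 0.1 FPKM in both, with a summed level of 25.6 FPKM in MEF, against 56.1 FPKM in ESC. Of 10 keratinocyte markers only Sfn passed 4-fold (1.56 in MEF against 47 in ESC), Krt5 was listed at 0 in both, and the sum was 27.7 FPKM in MEF, against 56.8 FPKM in ESC. None of 5 adipogenic genes compared out of 10 passed 4-fold, Adipoq stood at 0.0842 in MEF against 0.0752 in ESC FPKM, and that list summed to 45.6 FPKM in MEF, against 45.5 FPKM in ESC.

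Families were read from shared name stems, over 401 stems with at least 5 genes compared. The stems with the largest shares higher in MEF were Hoxb (8 of 8), Hoxa (6 of 9), the protocadherin stem Pcdh (4 of 6), the annexins Anxa (6 of 10) and the galectins Lgals (3 of 5). Pcdh18 stood at 15.9 in MEF against 0.511 in ESC, Pcdh7 at 21.1 in MEF against 1.2 in ESC and the abundant galectin Lgals1 at 1689.6 in MEF against 181 in ESC FPKM. Then came the calcium channel stem Cacna, the clustered protocadherins Pcdhb, the retrotransposon-derived Rtl genes and Wnt with 4 of 7 each, and the serpins Serpinb with 5 of 9. Cacna1c stood at 8.1 in MEF against 0.339 in ESC, Pcdhb16 at 6.82 in MEF against 0.088 in ESC, Serpinb9 at 37.6 in MEF against 0.246 in ESC and Rtl8a at 51.4 in MEF against 7.89 in ESC FPKM, and the Rtl8 genes are close copies that may share reads.

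On the lower side were the keratins Krt (4 of 6), Pou factors (3 of 5), claudins Cldn (4 of 7), glutathione peroxidases Gpx and the pluripotency-associated noncoding Platr genes (3 of 6 each), Sox (4 of 9) and Klf (6 of 14). L, Pcsk and Reep, with 2 of 5 each, completed the 10. Platr10 was listed at 0 in MEF against 55.3 in ESC and Platr14 was listed at 0 in MEF against 17.9 in ESC FPKM. Gpx4, which guards membranes against lipid peroxides, stood at 88.3 in MEF against 468 in ESC, whereas Gpx8 of the endoplasmic reticulum was higher in MEF at 76.4 in MEF against 5.52 in ESC FPKM. In the Sox family Sox2 and Sox13 (0.108 in MEF against 18 in ESC) were lower and Sox9 was higher. In the Klf family none was past 4-fold higher in MEF.

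The MEF and ESC libraries of MLL3-/-;MLL4-/- cells gave a second pair of libraries, not a replicate, since genotype differs. Kmt2d stood there at 23.5 in MEF against 10.7 in ESC FPKM. These values over whole transcripts do not isolate the deleted part and check no genotype, so these are called the libraries labelled MLL3-/-;MLL4-/-. In them, 692 genes were at least 4-fold higher in MEF, of which 470 were shared, making 54.0% of the 870 and 67.9% of the 692. Of 805 lower genes 538 were shared, making 58.0% of the 928 and 66.8% of the 805. No gene was past 4-fold in opposite directions. The sign was the same for 96.1% of the 870 genes and 98.6% of the 928. The core pluripotency list had a median log2 difference of -5.66 there, with Pou5f1 at 0.0906 in MEF against 515 in ESC and Sox2 at 0.0532 in MEF against 214 in ESC FPKM. The collagen median hardly differed, at 1.97 there against 2.01 in MLL3-/-;MLL4flox/flox cells, although these values lie on either side of 4-fold. Other matrix lists had smaller medians there, both under 4-fold. These were 1.83 against 2.66 for matricellular and elastic fibre genes and 0.585 against 3.22 for small leucine-rich proteoglycans. Among collagens, Col1a2 stood at 1720.3 in MEF against 62 in ESC, Col3a1 at 516 in MEF against 10.7 in ESC and Col1a1 at 356 in MEF against 68 in ESC FPKM (log2 difference 2.37). Other genes stood close to each other in that pair, such as Lum at 2 in MEF against 1.57 in ESC, Isg15 at 2.39 in MEF against 1.84 in ESC, Col2a1 at 0.692 in MEF against 0.661 in ESC and Igfbp5 at 1.01 in MEF against 0.651 in ESC FPKM. Whether the difference between the pairs exceeds the spread of replicates was not tested.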

How the data were processed

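Messenger RNA of 2 libraries was compared, MEF and ESC of genotype MLL3-/-;MLL4flox/flox, with 1 library each and no replicate, so no test was made. Per the labels' protocols, total RNA was taken with Trizol, mRNA was purified on Dynabeads and libraries were made with the Illumina TruSeq kit. The authors deposited 1 FPKM value per Entrez gene. The submitters' processing notes name the build mm9, CASAVA 1.8.2 and SICER; the sources used here name no aligner, annotation, strand setting or rule for shared reads. Of 24284 genes, 24203 were matched to symbols through a RefSeq table (GRCm38.p6, names and sequences only).

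Differences were taken as log2(FPKM + 1), MEF minus ESC, for genes with a mean of at least 1 FPKM, and called at 4-fold (Python 3.11.15, pandas 2.3.3, numpy 2.4.6). Depth was recovered from FPKM steps of low genes with 1 transcript whose length followed from another ESC library, deposited by the authors as counts and RPKM. In MEF 96.7% of 214 such genes, and in ESC 100.0% of 73, were whole multiples of 1 read within 0.02 reads. Intervals on reads are 95% exact Poisson, and intervals and floors cover counting error only.

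The members, the 49 gene lists (901 entries) and the rules were chosen with earlier results of these data known. Named genes were Kmt2c and Kmt2d, the 15 largest differences in each direction, up to 4 members past 4-fold of each list, all members of 4 lists (fibroblast, core pluripotency, KMT2, sex-linked), and 3 members of each of 10 name-stem families a direction; members named beside these, and all miRNA genes, were chosen after their values were seen. Genes without a symbol word (22 higher, 79 lower) were counted and not named, and 2 listed genes are counted and not reported singly here. Alternatives were the pseudocount, the filter, the scaling, the fold and the pair of libraries labelled MLL3-/-;MLL4-/-. The calculation was tested on simulated data.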

Additional observations from a re-analysis of the deposited data

Results flagged for a closer look

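In the 3 genes that follow, the difference between MEF and ESC had opposite signs in the 2 pairs of libraries; with 1 library per group the difference between the pairs was not tested. Ctsh, a lysosomal protease, had a log2 difference of 3.90 in MLL3-/-;MLL4flox/flox cells (20.3 in MEF against 0.428 in ESC FPKM) and of -0.23 in the libraries labelled MLL3-/-;MLL4-/- (1.77 in MEF against 2.26 in ESC FPKM). Cx3cl1, a membrane-bound chemokine, had a log2 difference of 2.92 in MLL3-/-;MLL4flox/flox cells and of -0.17 in the libraries labelled MLL3-/-;MLL4-/- (0.981 in MEF against 1.23 in ESC FPKM). Egr3, an immediate early transcription factor, had a log2 difference of 2.56 in MLL3-/-;MLL4flox/flox cells (7.89 in MEF against 0.509 in ESC FPKM) and of -0.48 in the libraries labelled MLL3-/-;MLL4-/- (1.62 in MEF against 2.64 in ESC FPKM).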

How the results depend on the processing

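The number of genes at least 4-fold higher in MEF was 1325 with a pseudocount of 0.1 FPKM and 336 with 5 FPKM, and the number lower was 364 with 5 FPKM, since a larger pseudocount shrinks the differences of low genes by construction. At 2-fold 2418 genes were higher and 2835 lower, and at 8-fold 281 were higher and 397 lower. Other settings kept both numbers within 1.5 times of 870 and 928. Of 49 lists 16 had a median past 4-fold, against 7 with a pseudocount of 5 FPKM and 9 with no filter on low values, where genes near 0 in both libraries enter by construction. The 7 lists under 4-fold without the filter were the Hox genes (1.79), mesenchymal transcription factors (1.84), collagens (1.19), small leucine-rich proteoglycans (1.24), germline genes (-1.65), intermediate filaments (-1.53) and endothelial and blood markers (-0.05). The ESC level of fibroblast markers was 19.7% of the MEF level in the libraries labelled MLL3-/-;MLL4-/-; the cause was not tested. Of the 209 named genes, 10 had the opposite sign in that pair, and 3 of these were past 4-fold in MLL3-/-;MLL4flox/flox cells: Ctsh (-0.23), Cx3cl1 (-0.17) and Egr3 (-0.48). No paired analysis was possible because each group had 1 library, and no library could be left out. Values of genes under a few reads, hairpins among them, are limited by depth.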

Other observations

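The share of genes at least 4-fold different between MEF and ESC varied by chromosome, with no test made. Against 6.83% of all genes compared, the share higher in MEF was highest on chromosome 6, at 13.1% of 595 genes, and lowest on chromosome 7, at 3.78% of 979. Against 7.29% of all genes compared, the share lower in MEF was highest on chromosome 7, at 12.97%, and lowest on chromosome 19, at 4.17% of 432. Hoxa lies on chromosome 6, and neighbouring genes of a family are not independent. Of 325 long noncoding genes compared, 17 (5.23%) were at least 4-fold higher in MEF and 27 (8.31%) lower, near the shares of all genes. Among RNAs of the nucleus, Neat1, the scaffold of paraspeckles, stood at 195 FPKM in MEF, against 30.6 FPKM in ESC, and Malat1 at 375 FPKM in MEF, against 217 FPKM in ESC. Rmrp, an RNA that has no poly(A) tail, stood at 4.53 FPKM in MEF, against 21.2 FPKM in ESC.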
